A study of Mus musculus with 136 samples.

Results

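Epithelial adhesion and keratin genes were followed through 66 mouse concepti: the cadherins Cdh1 and Cdh2, the adhesion molecule Epcam, the keratins Krt8, Krt18 and Krt19, and the claudins Cldn6 and Cldn7. These 8 genes were taken by symbol out of the 47643 genes of the deposited table of molecule counts, and all 8 were found. Embryo and visceral yolk sac of every conceptus were sequenced separately, so each gene has 66 values per tissue. All concepti were of the NOD strain at embryonic day E8.5 and differed in whether the dam had developed diabetes spontaneously. Diabetic dams were mated to NOD males without diabetes.

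At 5 to 6 somite pairs, the normal group had 17 concepti in 10 litters and the diabetic group 17 concepti in 9 litters. At 7 to 9 somite pairs, they were 16 concepti from 7 normal and 16 from 6 diabetic litters, and litter D24M15 supplied 7 of the latter 16. Some litters gave concepti to both stages, with 10 normal and 12 diabetic litters in all. Blood glucose was given as 105 to 164 mg/dl for normal dams and as 423 to 595 mg/dl for 11 diabetic dams, with 1 further dam beyond the meter. Littermates shared a dam, and p-values over libraries take no account of that unless litters are named. The diabetes model is a genetic one in which autoimmunity is part of the strain, and normal dams carry the same genotype.

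Total counts ran from 1017901 to 5658850 per library, with a median of 2302819. Each molecule was counted once from its 3′ end, so a longer transcript does not give more counts, and levels of different genes can be set side by side apart from differences in how well each 3′ end is captured. Levels are given as normalized counts, which are counts divided by a size factor for the library. Marker genes matched the tissue labels. Summed over 10 markers of visceral endoderm, yolk sacs held 10372 or more normalized counts and embryos at most 3362, while 7 neural markers summed to 696 or more in embryos and to at most 97.2 in yolk sacs. The samples are whole tissues, in which fewer cells of a type and less RNA per cell cannot be told apart.

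Cadherins join neighbouring cells through their outer domains and hold on to actin through catenins. E-cadherin (Cdh1) is typical of epithelia and N-cadherin (Cdh2) of mesoderm, heart and neural tube, and cells exchange the former for the latter at gastrulation and in neurulation. Keratin 8 pairs with keratin 18 to form the intermediate filaments of simple epithelia, keratin 19 is a further acidic partner, and claudins seal the tight junctions between the cells. The visceral yolk sac is an absorptive epithelium, the visceral endoderm, laid over mesoderm that makes blood and vessels, whereas the embryo at this stage holds surface ectoderm, neural plate and gut epithelium beside abundant mesoderm.

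In embryos at 5 to 6 somite pairs, Cdh1 was the most abundant of the 8 genes, with a median of 446 normalized counts over 34 libraries. Krt18 followed at 265 and Epcam at 193. Each of these was above the next in at least 30 of 34 embryos. Cdh2 (73.4), Cldn6 (69.7) and Krt8 (63.8) came next, and neighbours in that order could not be ranked, since Cdh2 exceeded Cldn6 in 17 and Cldn6 exceeded Krt8 in 19 of 34 embryos. Cldn7 (38.4) and Krt19 (35.6) were the lowest and also exchanged places, with Cldn7 above Krt19 in 16 of 34. In yolk sacs of that stage, Cdh1 had a median of 1150, Krt18 of 511, Cldn6 of 402, Epcam of 305, Cldn7 of 218, Krt8 of 150 and Krt19 of 30.7. Cdh2 closed the list at 4.26, below Krt19 in all 34 yolk sacs. Cdh1 and Krt18 again headed both tissues at 7 to 9 somite pairs, with medians of 592 and 293 in embryos and of 1550 and 944 in yolk sacs.

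**Figure D1:**
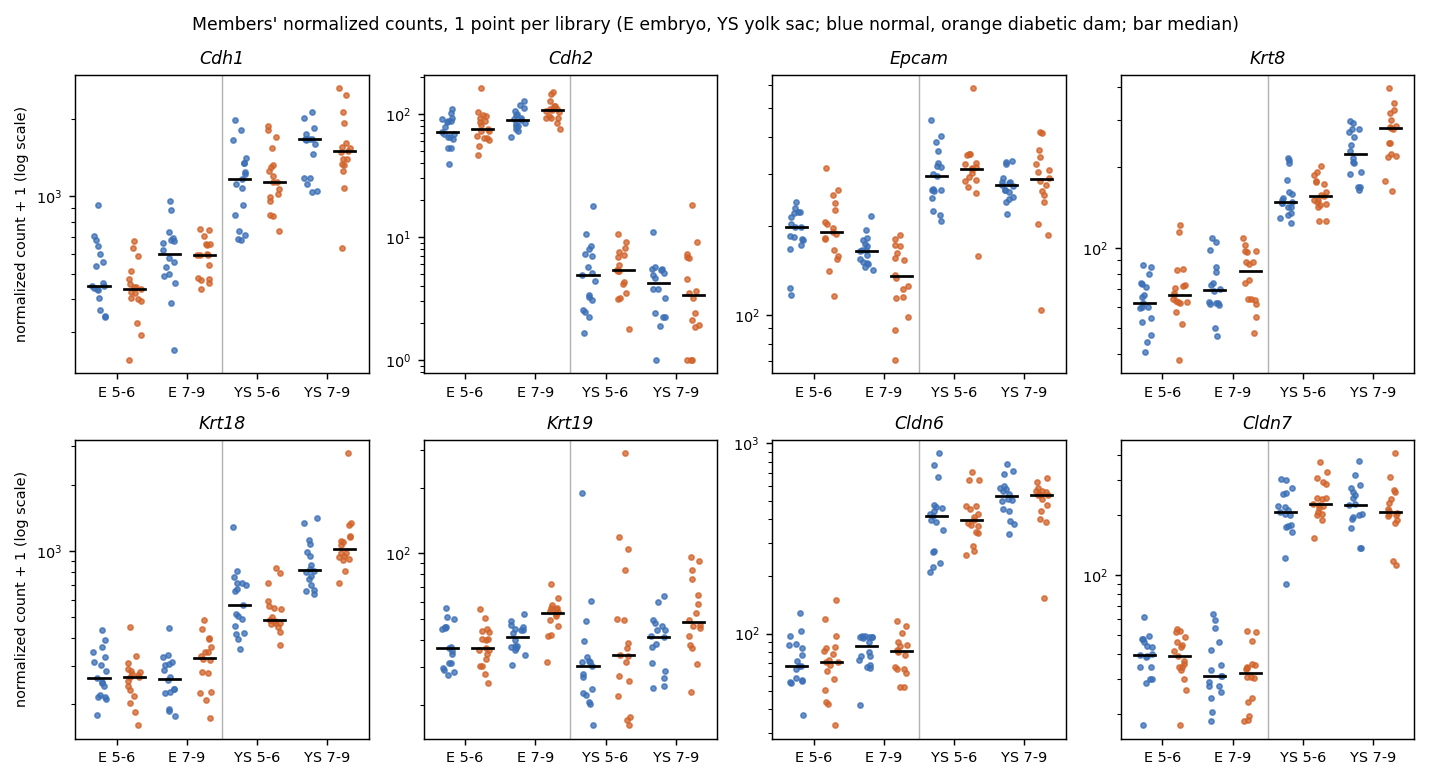
Normalized counts plus 1 on a log scale, with 1 point per library, 1 panel per gene and the axis of each panel drawn to its own range. Blue points are concepti of normal dams, orange points those of diabetic dams, E marks embryos, YS yolk sacs, the numbers the somite pairs, and black bars the group medians. Cdh2 sits above 38 in every embryo and below 18 in every yolk sac, while Cldn6 and Cldn7 are higher in all yolk sacs than in any embryo of the same stage.

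The first comparison set the yolk sac against the embryo. Of the 8 genes, 6 were higher in yolk sacs and 1 was lower at either stage, by edgeR's quasi-likelihood test with an adjusted p under 0.05. The tissues differ in most genes. The share of all genes without overlap between the tissues was not counted, so ranges said below to lie apart have no background to be read against. At 5 to 6 somite pairs 39.4% of all 11677 tested genes were higher in yolk sacs and 39.8% were lower, and at 7 to 9 the shares were 38.7% and 42.6% of 11577. The median log2 difference of the 8 genes was 1.22 and 1.57 in that order, beside -0.0029 and -0.042 over all tested genes.

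Cdh2 was the gene with the widest gap. Embryos held 38.2 to 161 normalized counts at 5 to 6 somite pairs and 63.8 to 151 at 7 to 9, and yolk sacs 0.65 to 17.0 and 0 to 17.2. No yolk sac reached the level of any embryo, and 4 of the 32 later yolk sacs had no count of Cdh2. The fitted log2 difference between yolk sac and embryo was -3.91 (SE 0.15, adjusted p = 3.1e-37) at 5 to 6 somite pairs and -4.66 (SE 0.16, adjusted p = 9.4e-39) at 7 to 9. The mean in yolk sacs was 6.10% and 3.48% of that in embryos. Cdh1 went the other way. Its range was 232 to 928 in embryos and 676 to 1984 in yolk sacs at 5 to 6 somite pairs, with a log2 difference of 1.38 (SE 0.10, adjusted p = 3.8e-21). At 7 to 9 the ranges were 255 to 956 and 632 to 2626, and the log2 difference was 1.41 (SE 0.095, adjusted p = 1.5e-22). The ranges of Cdh1 overlapped, but within a conceptus the yolk sac had more Cdh1 than its embryo in 33 of 34 and in 32 of 32 cases.

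The balance of the cadherins was read as the log2 ratio of Cdh1 to Cdh2 within each library, with 1 added to both counts. Every library of either tissue had more Cdh1 than Cdh2. In embryos the log2 ratio ran from 1.001 to 4.12 with a median of 2.52 at the earlier stage and from 1.35 to 3.496 with a median of 2.59 at the later stage. In yolk sacs it ran from 6.09 to 10.1 with a median of 7.88, and from 6.11 to 11.3 with a median of 8.89. Cdh2 had medians of only 4.26 and 2.68 normalized counts in these yolk sacs. The size of their ratio, its change between the stages and the gap to the embryo therefore depend on the 1 added and on depth. The yolk sac exceeded the embryo of the same conceptus in 34 of 34 and 32 of 32 cases. Averaged per litter, the gap was 5.07 on the log2 scale over 19 litters, from 2.64 to 7.39 in single litters, and 6.32 over 13 litters, from 4.52 to 8.69. Exact sign-flip tests of the litter means, two-sided, gave p = 3.8e-06 and p = 0.000244, the smallest values that 19 and 13 litters allow. Adjusted over the 2 stages, they were 7.6e-06 and 0.000244.

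The claudins were the members with the largest excess in yolk sacs. Claudin 6 is a claudin of embryonic epithelia, and claudin 7 is found along many mature epithelia. Cldn6 ranged from 32.0 to 148 in embryos and from 211 to 885 in yolk sacs at 5 to 6 somite pairs, and from 41.1 to 115 and from 152 to 780 at 7 to 9. Its log2 difference was 2.60 (SE 0.12) and 2.71 (SE 0.094), with adjusted p-values of 3.0e-31 and 8.4e-39. Cldn7 ranged from 16.6 to 60.4 and from 88.7 to 370, then from 17.3 to 62.3 and from 112 to 407, with log2 differences of 2.60 (SE 0.095) and 2.796 (SE 0.12). For both claudins the tissues were fully apart at either stage, and the share of all genes so apart was not counted. Among 14 other claudin genes of the table, 3 of 8 tested were higher and 5 lower in yolk sacs at 5 to 6 somite pairs, and 2 of 6 tested were higher and 4 lower at the later. Cldn2, which forms a cation pore, was higher by 4.65 and 4.87 on the log2 scale, and Cldn9 was lower by a log2 difference of -2.07 and -1.96.

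The keratins did not behave alike. Krt8 ran from 37.1 to 121 in embryos and from 123 to 215 in yolk sacs at 5 to 6 somite pairs, and from 45.9 to 108 and from 162 to 394 at the later, without overlap at either. The log2 differences were 1.31 (SE 0.074, adjusted p = 6.0e-27) and 1.74 (SE 0.085, adjusted p = 4.0e-30). Krt18 was higher in yolk sacs by 1.13 (SE 0.092, adjusted p = 1.0e-18) and 1.79 (SE 0.096, adjusted p = 8.1e-28). Its ranges of 160 to 448 and 357 to 1280 overlapped at 5 to 6 somite pairs, while those of 173 to 483 and 636 to 2777 did not at 7 to 9. Krt19 was not called at either stage. Its medians were 35.6 in embryos and 30.7 in yolk sacs at 5 to 6 somite pairs, with 15.2 to 288 in yolk sacs against 24.4 to 55.2 in embryos, and the fitted difference was 0.37 (95% interval -0.027 to 0.76, adjusted p = 0.083). At 7 to 9 somite pairs the medians were 44.9 and 43.8 and the difference was 0.041 (95% interval -0.15 to 0.24, adjusted p = 0.71).

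Epcam, a surface glycoprotein of epithelia, was higher in yolk sacs by 0.73 (SE 0.080, adjusted p = 4.4e-13) and 0.92 (SE 0.080, adjusted p = 4.7e-17). Its ranges overlapped at both stages, at 115 to 312 against 158 to 583 and at 69.5 to 216 against 103 to 415, and the yolk sac was the higher of the pair in 31 of 34 and 32 of 32 concepti.

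Visceral endoderm markers were present at a low level in embryo libraries. At 7 to 9 somite pairs the mean of the 10 markers in embryos was 1.30% to 3.31% of that in yolk sacs. For the 6 members higher in yolk sacs, embryos held 14.6% (Cldn7), 15.4% (Cldn6), 28.96% (Krt18), 30.3% (Krt8), 38.2% (Cdh1) and 53.8% (Epcam) of the yolk sac mean.

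Genes of the same structures were examined by lists. Of 10 desmosome genes, which build the spot junctions anchored to keratins, 8 were tested at the earlier stage, of which 7 were higher and 1 lower in yolk sacs, and 7 at the later, of which 6 were higher. Desmoglein 2 (Dsg2) was higher by 2.07 and 2.33 and desmocollin 2 (Dsc2) by 2.02 and 2.44 on the log2 scale, whereas Ppl was lower at the earlier stage by a log2 difference of -1.70. Of 14 other tight junction and polarity genes, 8 of 13 tested were higher and 2 lower at the earlier stage, and 9 of 14 were higher and 4 lower at the later, with occludin (Ocln) higher by 2.501 and 2.90 and Marveld3 by 3.09 and 3.24. Of 16 epithelial regulators and membrane proteins, 9 of 15 and 9 of 14 tested were higher and 6 and 5 lower. The splicing regulator Esrp2 was higher by 3.16 and 3.21, and Prom1 was lower by log2 differences of -2.70 and -2.87. Of 11 mesenchymal genes, 7 were lower and 3 higher at each stage. The forkhead genes Foxc1 and Foxc2 were lower by log2 differences of -5.40 and -4.21 at 5 to 6 and of -5.70 and -4.995 at 7 to 9 somite pairs. Of the other cadherins and catenins, 6 of 15 tested were higher and 8 lower at either stage. Among them Cdh13 had log2 differences of -3.93 and -5.19 and Ctnna2 of -4.68 and -4.53, and plakoglobin (Jup) was higher by 1.54 and 1.61. Of 12 other keratins only Krt7 and Krt10 passed the filter on low counts.

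**Figure D2:**
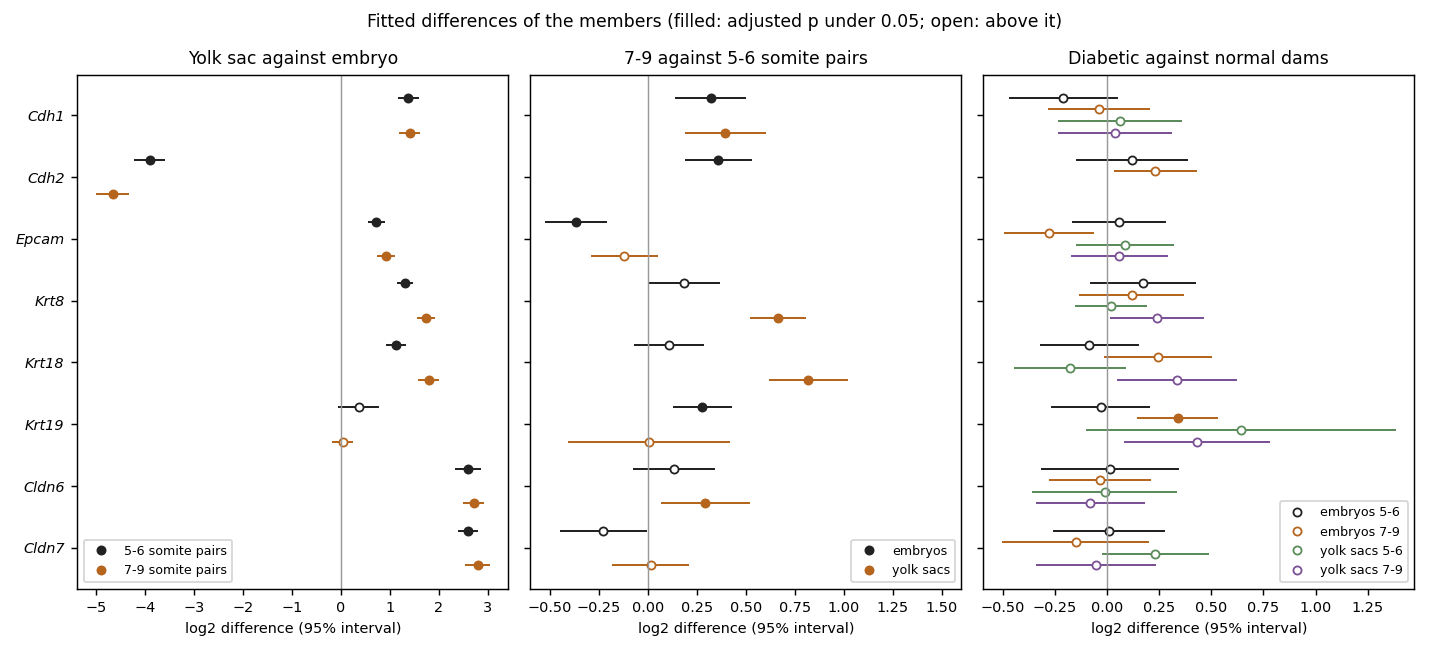
Fitted log2 differences of the members with their 95% intervals, for yolk sac against embryo (left), 7 to 9 against 5 to 6 somite pairs (middle) and diabetic against normal dams (right). Filled points have an adjusted p under 0.05 and open points do not, and Cdh2 is missing where it was too low in yolk sacs to be tested. The tissue differences reach from -4.66 to 2.796, those of stage from -0.36 to 0.82, and of the diabetes comparisons only Krt19 in the later embryos is filled.

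The second comparison followed the genes from 5 to 6 to 7 to 9 somite pairs within a tissue. In yolk sacs, 4 of 7 tested members rose and none fell, where 21.7% of all 10857 tested genes rose and 18.3% fell. The median log2 difference of the members was 0.29, beside 0.0087 over all tested genes. Krt8 and Krt18 rose most. Krt8 had medians of 148 and 155 normalized counts in yolk sacs of normal and diabetic dams at the earlier stage and of 222 and 278 at the later, and all 32 later yolk sacs lay above the earlier median. The log2 difference was 0.66 (SE 0.070, adjusted p = 1.5e-11). Krt18 had medians of 565 and 485 and then of 817 and 1019, again with all 32 later yolk sacs above the earlier median, and rose by 0.82 (SE 0.098, adjusted p = 7.1e-10). By somite number, the median of Krt18 was 486, 637, 808, 945 and 1025 from 5 to 9 pairs, and that of Krt8 was 150, 151, 219, 276 and 257. The highest value of Krt18, 2777, came from D28M36C, the library with the lowest total count of the series, which also had the lowest Cdh1, Epcam, Krt8 and Cldn6 of the later yolk sacs. Cdh1 rose by 0.40 (SE 0.10, adjusted p = 0.0011) and Cldn6 by 0.29 (SE 0.11, adjusted p = 0.030). The call of Cldn6 did not hold without the filter on low counts (adjusted p = 0.057), with trophoblast markers as a covariate (0.069) or without the 8 yolk sacs with high trophoblast markers described later (0.25, adjusted p = 0.091). Epcam (-0.12, adjusted p = 0.25) and Cldn7 (0.014, adjusted p = 0.92) were not called. Markers of several cell types moved with the keratins in the same yolk sacs. Of 10 visceral endoderm markers, 8 rose and 1 fell, with a median of 0.59 and Afp, the fetal serum protein, up by 0.86, and their sum was 10372 to 41869 at 5 to 6 somite pairs and 21640 to 53508 at 7 to 9. Of 5 primitive erythroid markers 4 rose and 0 fell, with a median of 0.80 and sums of 5310 to 23619 and 7959 to 45375. Of 3 tested trophoblast markers 3 fell, with a median of -1.54, and the sums of all 8 were 12.0 to 2283 and 43.03 to 407. Their part in the rise of the keratins was not tested.

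Krt8 and Krt18 lie side by side on mouse chromosome 15, 23.7 kb apart and transcribed away from each other. In GRCm38, Krt8 (ENSMUSG00000049382) spans 101996698 to 102004482 on the minus strand and Krt18 (ENSMUSG00000023043) spans 102028180 to 102032027 on the plus strand. The 250 bases before each RefSeq start site (GRCm38.p6) are shown because the genes rose together in yolk sacs. Capitals mark CAGGTG or its reverse complement CACCTG, the E-box read by the Snail and Zeb repressors of epithelial genes, searched on both strands. The windows are chr15:102004343-102004592 on the minus strand and chr15:102027966-102028215 on the plus strand, each written 5′ to 3′ on the strand of its gene.
Krt8: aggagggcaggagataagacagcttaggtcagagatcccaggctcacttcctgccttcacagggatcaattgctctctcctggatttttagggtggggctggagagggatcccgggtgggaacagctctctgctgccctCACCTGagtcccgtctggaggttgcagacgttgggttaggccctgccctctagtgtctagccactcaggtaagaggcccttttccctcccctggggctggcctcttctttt
Krt18: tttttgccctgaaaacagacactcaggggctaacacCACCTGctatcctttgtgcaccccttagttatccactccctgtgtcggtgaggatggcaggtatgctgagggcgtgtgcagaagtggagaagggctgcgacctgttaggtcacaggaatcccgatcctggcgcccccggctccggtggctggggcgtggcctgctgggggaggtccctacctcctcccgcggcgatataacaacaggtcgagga
Krt8 held 1 such E-box, 111 to 106 bases before its RefSeq start, and Krt18 held 1, 214 to 209 bases before its RefSeq start. The RefSeq starts of Krt8 and Krt18 both lie inside the spans given above. The E-box of Krt8 also lies inside the span of Krt8, while the E-box of Krt18 lies ahead of the span of Krt18. Of all 32851 windows of that length in the table, 17.2% held the motif. A match is a description of the sequence and says nothing about binding.

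**Figure D3:**
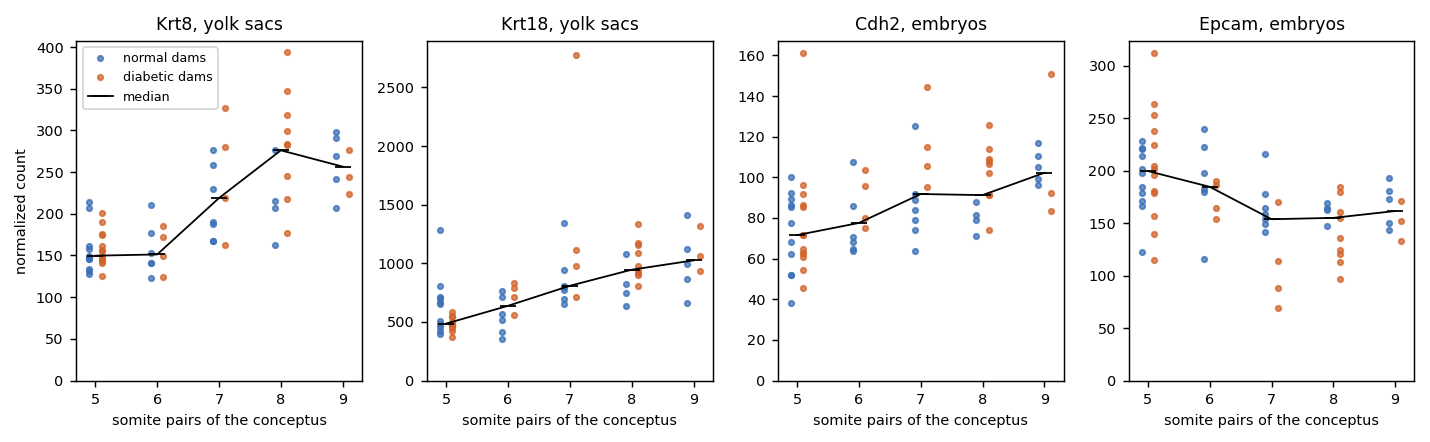
Normalized counts of Krt8 and Krt18 in yolk sacs and of Cdh2 and Epcam in embryos against the somite pairs of the conceptus, on linear axes from 0, with blue points for normal dams, orange points for diabetic dams and a line through the medians. The keratin medians at 7 somite pairs and beyond (219 or more for Krt8, 808 or more for Krt18) lie above those at 5 and 6 pairs, Cdh2 goes from 71.6 to 102 and Epcam from 200 to 162 between 5 and 9 pairs.

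In embryos, 3 of 8 members rose with stage and 1 fell, where 15% of 11304 tested genes rose and 15.8% fell. Their median log2 difference was 0.16, beside -0.0058 over all tested genes. Both cadherins rose. Cdh1 went from medians of 449 and 437 in embryos of normal and diabetic dams to 598 and 592, a log2 difference of 0.32 (SE 0.089, adjusted p = 0.0040). Cdh2 went from 70.4 and 75.0 to 88.6 and 106, by 0.36 (SE 0.083, adjusted p = 0.00051). Krt19 rose by 0.28 (SE 0.074, adjusted p = 0.0025), from medians of 35.7 and 35.5 to 40.4 and 52.4. Epcam fell by 0.36 on the log2 scale (SE 0.077, adjusted p = 0.00016), and 1 of 32 later embryos lay above the earlier median of 193. Krt8 (0.18, adjusted p = 0.10), Krt18 (0.11, adjusted p = 0.37), Cldn6 (0.13, adjusted p = 0.34) and Cldn7 (-0.23, adjusted p = 0.10) were not called. With the litter as a random block, Krt8 was called as well, at 0.23 and an adjusted p of 0.032. All 4 calls held in each of 10 alternative fits.

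The related lists moved as follows in embryos. Of the other tight junction and polarity genes 4 of 12 fell and 1 rose, with Crb3 down by 0.36 and Marveld2 by 0.35 on the log2 scale. Of the epithelial regulators and membrane proteins 3 of 12 fell and 0 rose. Of the other cadherins and catenins 3 of 15 fell and 0 rose, with Ctnna1 down by 0.30, and of the desmosome genes 1 of 8 fell and 0 rose, Dsg2 by 0.43. Of the other claudins 1 of 8 rose, Cldn9 by 0.39, and 0 fell. Of the mesenchymal genes, vimentin (Vim) rose by 0.40 and fibronectin (Fn1) fell by 0.36. Krt7 rose in both tissues, by 0.56 in embryos and by 1.17 in yolk sacs. Of 8 gut endoderm markers, Trh, Sox17, Foxa2 and Cpm fell in embryos, by 1.33, 0.50, 0.36 and 0.21 on the log2 scale. Of 7 mesoderm and heart markers 6 rose and 0 fell, with a median of 0.63, and their summed level was 212 to 996 in embryos at 5 to 6 somite pairs and 734 to 1672 at 7 to 9. Of 7 neural markers 4 rose and 1 fell, with a median of 0.35 and sums of 696 to 2173 and 914 to 2080. Of 3 tested primitive erythroid markers 3 rose, with a median of 4.22. The part of these cell types in the rise of Cdh2 or the fall of Epcam was not tested.

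The third comparison set concepti of diabetic dams against those of normal dams. Of the 8 members, 1 was called in 1 of the 4 combinations of tissue and stage. In embryos at 5 to 6 somite pairs no member was called by edgeR, none had an unadjusted p under 0.05 and none was called by DESeq2, while 1.46% of 11004 tested genes were called. The log2 differences lay between -0.21 for Cdh1 (95% interval -0.47 to 0.045, adjusted p = 0.33) and 0.17 for Krt8 (95% interval -0.076 to 0.42, adjusted p = 0.43).

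In embryos at 7 to 9 somite pairs, Krt19 was the member called, where 9.09% of 10628 tested genes were. Normal embryos held 29.6 to 51.4 normalized counts with a median of 40.4, and diabetic embryos 30.5 to 71.6 with a median of 52.4. The ranges overlapped, and the log2 difference was 0.34 (SE 0.094, 95% interval 0.15 to 0.53, adjusted p = 0.022). Litter means were fully apart, from 35.2 to 45.7 in the 7 normal litters and from 48.2 to 57.0 in the 6 diabetic litters. The share of all genes with litter means fully apart was not counted. The exact permutation test of litter means, two-sided, gave p = 0.0012 over all 1716 splits. Adjusted over the 32 such tests of the members, it was 0.037. The call was lost with the litter as a random block (adjusted p = 0.080), with counts summed per litter (0.11), with all 8 groups in 1 fit (0.36), and on leaving out litter D28M31 (0.058), N28M03 (0.052), N28M05 (0.060) or N28M07 (0.054), while the log2 difference stayed between 0.31 and 0.42 in 24 alternative fits. At 5 to 6 somite pairs the difference was -0.032 (95% interval -0.26 to 0.20). The change of the diabetes effect between the stages was 0.39 (SE 0.15, adjusted p = 0.080) and was not called.

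Other cell markers moved in the same later embryos. Of 7 mesoderm and heart markers, the cardiac myosin light chains Myl7 and Myl4 were higher under diabetes by 0.69 and 0.38 and the other 5 were not called, and the summed level of the list was 734 to 1164 in normal and 1002 to 1672 in diabetic embryos. Visceral endoderm markers summed to 96.3 to 1450 and to 141 to 3362, and with their level as a covariate Krt19 stayed at 0.32 (adjusted p = 0.027). Of 8 trophoblast markers 4 had a median of 0 in either group, and their sum was 58.4 to 105 and 41.7 to 122. Of 5 primitive erythroid markers 3 were tested and 0 called, with a median log2 difference of 1.23. Their sum was 19.3 to 1577 in normal and 36.7 to 4633 in diabetic embryos. The part of the heart or erythroid markers in the difference of Krt19 was not tested.

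Among the members not called in the later embryos, Epcam was 141 to 216 normalized counts in normal and 69.5 to 185 in diabetic embryos, at a log2 difference of -0.28 (95% interval -0.49 to -0.066, adjusted p = 0.084). It was called only with the 2-digit number after the first letter of each library title as a covariate (-0.33, adjusted p = 0.042). Cdh2 was at 0.23 (95% interval 0.037 to 0.43, adjusted p = 0.12) and Krt18 at 0.25 (95% interval -0.0085 to 0.50, adjusted p = 0.20). All 6 diabetic litters lay above the median of the normal litters for Krt18 (exact permutation p = 0.011, unadjusted). The interval of Cdh1 was -0.28 to 0.20 and that of Cldn6 was -0.28 to 0.20. Of the related lists, no other cadherin, catenin, keratin, claudin, tight junction, desmosome or epithelial regulator gene was called by edgeR, while 2, 0, 0, 5, 1 and 2 genes of these lists had an unadjusted p under 0.05 and DESeq2 called 1 tight junction and 1 regulator gene. Of the mesenchymal genes Fn1 was lower by a log2 difference of -0.35.

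**Figure D4:**
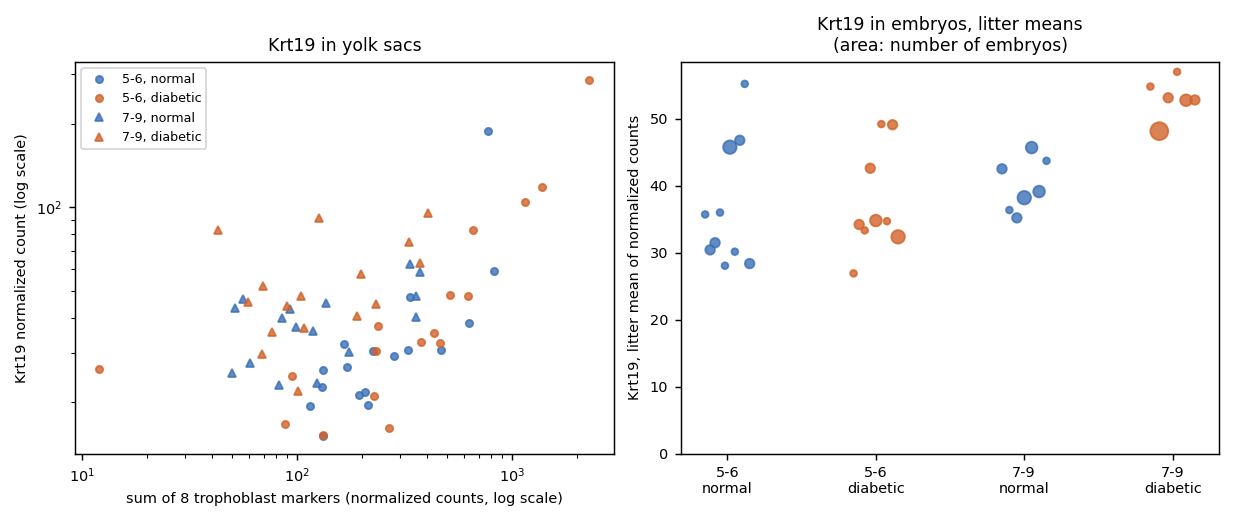
Left, Krt19 against the summed level of 8 trophoblast markers in the 66 yolk sacs, both in normalized counts on log axes, with circles for 5 to 6 and triangles for 7 to 9 somite pairs. Right, litter means of Krt19 in embryos on a linear axis from 0, with the area of a point in proportion to the number of embryos, blue for normal and orange for diabetic dams. The highest yolk sac has 288 counts of Krt19 beside a marker sum of 2283, and the diabetic litters at 7 to 9 somite pairs (48.2 or more) lie above the normal ones (45.7 or less).

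In yolk sacs Cdh2 was too low to be tested within a stage, which left 7 members. At 5 to 6 somite pairs none was called by edgeR or DESeq2 and none had an unadjusted p under 0.05 in edgeR, and the share of all 10250 genes called was 0%. All 9 diabetic litters lay above the median of the normal litters for Cldn7. Its litter means differed by 0.37 (exact permutation p = 0.021, adjusted 0.23 over 32 tests). At 7 to 9 somite pairs none was called by edgeR or DESeq2, where 0.0194% of 10317 genes were called by edgeR. The 3 keratins had an unadjusted p under 0.05 there, all with higher means under diabetes. Krt8 was 163 to 298 in normal and 162 to 394 in diabetic yolk sacs (0.24, 95% interval 0.017 to 0.46, adjusted p = 0.42). Krt18 was 636 to 1412 and 713 to 2777 (0.34, 95% interval 0.052 to 0.62, adjusted p = 0.39), and 0.19 without litter D28M36. Krt19 was 23.01 to 62.9 and 21.98 to 95.6 (0.43, 95% interval 0.087 to 0.78, adjusted p = 0.37). The groups overlapped for all 3. In the same later yolk sacs, 6 markers of the maternal decidua summed to 15.6 to 103 in the normal group, with a median of 30.6. In the diabetic group the sums were 19.3 to 807, with a median of 57.7. At 5 to 6 somite pairs these sums were 4.59 to 43.4 in normal and 2.02 to 433 in diabetic yolk sacs. The part of decidual tissue in the keratin differences was not tested.

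Tests of whether diabetes acted differently in the tissues or at the stages called no member. For the tissues, 0 of 8 members were called at either stage by edgeR or DESeq2, with 0 and 1 at an unadjusted p under 0.05, beside 0% and 0.389% of all 11677 and 11577 genes. For the stages, 0 of 8 in embryos and 0 of 7 in yolk sacs were called, with 2 and 1 at an unadjusted p under 0.05, beside 8.7% and 0% of all genes. The ratios within libraries did not pass either. The log2 ratio of Cdh1 to Cdh2 differed between diabetic and normal litters by -0.23, -0.14, -0.11 and 0.13 in the earlier embryos, later embryos, earlier yolk sacs and later yolk sacs, with exact permutation p-values of 0.40, 0.63, 0.78 and 0.79, each 0.79 when adjusted over 8 tests. The log2 ratio of Krt8 to Krt18 was below 0 in every library. It was higher in diabetic litters by 0.40 in the earlier embryos, where the means were -1.81 and -2.20 (exact permutation p = 0.032, adjusted 0.26), and differed by -0.17, 0.12 and -0.18 in the other three, with adjusted p-values of 0.79.

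Trophoblast markers summed to a median of 192 normalized counts over the 66 yolk sacs and to 41.7 to 141 in embryos, and 8 yolk sacs, all at 5 to 6 somite pairs, exceeded 3 times that median. They were 5 from diabetic and 3 from normal dams, and their sums reached from 626 to 2283. Krt19 was 288 in D28M36B, 188 in N28M30H, 118 in D28M53B, 104 in D28M53A and 83.1 in D28M53G, and 38.5 to 59.0 in the other three. In the 26 other yolk sacs of the stage it was 15.2 to 48.6, so the 5 highest values all stood in this set. In D28M36B the trophoblast genes Tfap2c, Plac1 and Ascl2 were at 1157, 746 and 319.

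Over all 66 yolk sacs, Krt19 correlated with the mean log2 level of the 8 trophoblast markers, both as deviations from their group means. Pearson's r was 0.69 and Spearman's rho 0.64, each with a permutation p of 1.0e-05, the smallest that 100000 resamples can give, and 8.0e-05 when adjusted over the 8 members. Without the 2 libraries farthest from the median, r was 0.66. It was 0.74 and 0.71 within the 17 and 46 libraries with 24 and 28 after the first letter of the title, 0.62 within litters over 53 libraries, and 0.54 without the 8 yolk sacs. Littermates are not independent, so these p-values are too small. Epcam had r = 0.33 (adjusted p = 0.025) and rho = 0.27 (adjusted p = 0.12), with r = 0.17 without the 2 farthest libraries, and the other 6 members had |r| of at most 0.24 and adjusted p-values of 0.13 or more.

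Without these 8 yolk sacs, chosen after the data were seen, the comparisons of Krt19 came out otherwise. All 8 were at 5 to 6 somite pairs and held the 5 highest Krt19 values there. Leaving them out therefore lowers Krt19 at that stage by the choice itself, and p-values of the fits without them are no support for a difference. The yolk sac against embryo difference at 5 to 6 somite pairs turned from 0.37 to -0.41 (SE 0.10, adjusted p = 0.00034). The difference of 7 to 9 against 5 to 6 somite pairs in yolk sacs went from 0.0036 to 0.76 (SE 0.13, adjusted p = 6.3e-06), and to 0.63 (SE 0.16, adjusted p = 0.0014) with the markers as a covariate. The difference under diabetes at 5 to 6 somite pairs went from 0.64 (95% interval -0.095 to 1.38) to 0.084 (SE 0.18, adjusted p = 0.94). With the markers as a covariate it was -0.0063 (SE 0.20, adjusted p = 0.996). The other members called for tissue at 5 to 6 somite pairs were called with these libraries left out too.

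In embryos the members were set against the visceral endoderm markers in the same way. Over 66 embryos, Cldn7 (r = 0.43, rho = 0.48), Krt18 (r = 0.39, rho = 0.39) and Krt8 (r = 0.35, rho = 0.37) correlated with them, with permutation p-values of 0.00036, 0.0015 and 0.0043 for r, and of 0.0029, 0.0062 and 0.011 when adjusted over 8 members. Without the 2 farthest embryos r was 0.41, 0.40 and 0.32, and within litters it was 0.49, 0.54 and 0.58. Within the 17 and 46 libraries of the title numbers 24 and 28, r was 0.36 and 0.49 for Cldn7, 0.61 and 0.29 for Krt18 and 0.67 and 0.17 for Krt8. The other 5 members had |r| of at most 0.15 and adjusted p-values of 0.44 or more.

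Members also varied with each other around their group means. Over 56 relations, 28 in each tissue, 10 in embryos and 7 in yolk sacs had an adjusted permutation p under 0.05 for r, and 3 and 2 of these were negative. The share over all pairs of genes was not counted, so these counts have no background to be read against. Libraries of 1 litter are not independent, so these p-values are too small. The median r was 0.053 in both tissues. In embryos the highest was that of Epcam with Cldn6 (r = 0.68, rho = 0.63, permutation p = 1.0e-05 for both, adjusted 0.00028 and 0.00056). Both ran against Cdh2, at r = -0.56 for Epcam (rho = -0.55) and r = -0.57 for Cldn6 (rho = -0.55), with adjusted p-values of 0.00028 for r and 0.00056 for rho. Within litters these 3 values of r were 0.46, -0.35 and -0.38, and without the 2 farthest embryos 0.63, -0.50 and -0.49. Within the 17 and 46 embryos of the title numbers 24 and 28 they were 0.62 and 0.68, -0.56 and -0.51, and -0.63 and -0.52. The keratins were positive with each other, with r = 0.52 for Krt8 and Krt19, 0.48 for Krt18 and Krt19 and 0.40 for Krt8 and Krt18. For these pairs rho was 0.49, 0.41 and 0.35, and r within litters was 0.31, 0.48 and 0.37. By title number, r was 0.37, 0.72 and 0.57 for 24 and 0.56, 0.27 and 0.33 for 28. The keratins were not apart from the claudins. Krt8 had r = 0.36 with Cldn6 and Krt18 had r = 0.35 with Cldn7 (adjusted permutation p = 0.017 for both). In yolk sacs Krt8 and Krt18, which rose together with stage, had r = 0.17 and rho = 0.27 around the group means. For this pair r was 0.35 without the 2 farthest yolk sacs and 0.33 within litters. Cdh1 with Cldn7 was the pair with the highest r there (0.45, rho = 0.42, adjusted p = 0.0012 and 0.0047), and it had r = 0.42 in embryos.

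**Figure D5:**
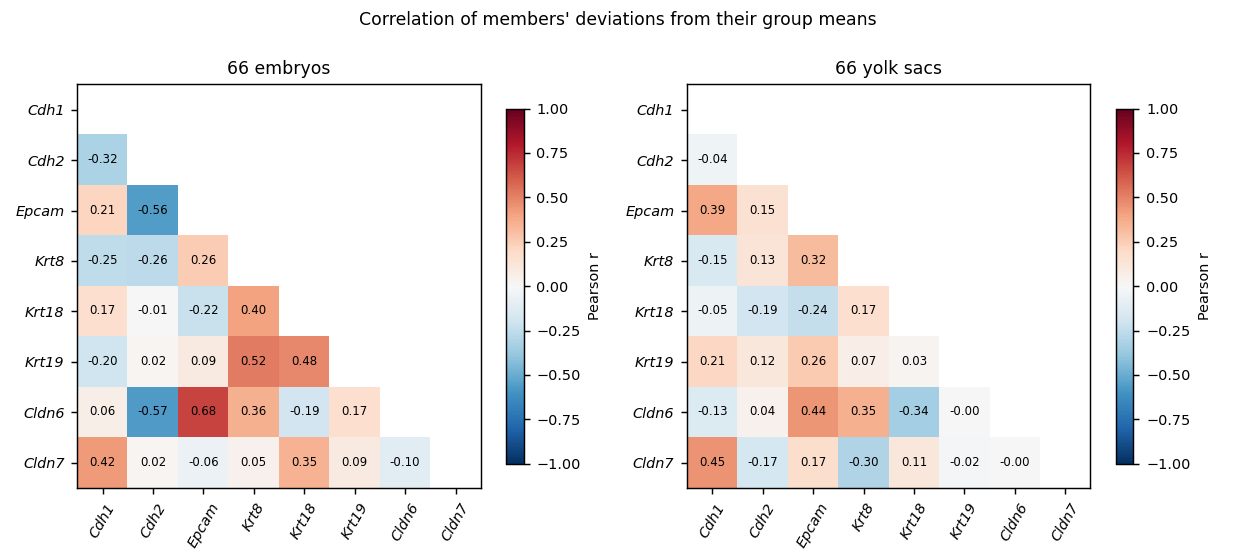
Pearson's r between members over 66 embryos (left) and 66 yolk sacs (right), from deviations of log2 of the normalized count plus 1 from the mean of each stage and maternal condition, with red for positive and blue for negative values. In embryos Epcam and Cldn6 pair at 0.68 and both are negative with Cdh2 (-0.56 and -0.57), and the 3 keratins pair at 0.40 to 0.52. In yolk sacs the values reach from -0.34 to 0.45.

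Epcam (ENSMUSG00000045394) spans 87635979 to 87651129 and Cldn6 (ENSMUSG00000023906) spans 23679249 to 23682446, both on the plus strand of chromosome 17 in GRCm38. Their 250 bases before the RefSeq start sites (GRCm38.p6), chr17:87635729-87635978 and chr17:23679115-23679364, are shown because the genes had the highest correlation in embryos, with the same E-box in capitals.
Epcam: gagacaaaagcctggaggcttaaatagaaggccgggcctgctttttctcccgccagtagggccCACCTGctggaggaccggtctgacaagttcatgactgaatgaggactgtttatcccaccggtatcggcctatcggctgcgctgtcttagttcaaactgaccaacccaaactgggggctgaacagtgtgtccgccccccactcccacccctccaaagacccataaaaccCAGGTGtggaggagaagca
Cldn6: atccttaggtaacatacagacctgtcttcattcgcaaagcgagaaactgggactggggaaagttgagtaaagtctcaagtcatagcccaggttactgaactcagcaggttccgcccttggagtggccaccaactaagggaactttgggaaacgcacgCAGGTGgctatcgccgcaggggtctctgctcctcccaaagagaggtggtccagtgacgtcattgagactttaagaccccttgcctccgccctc
Epcam held 2 E-boxes, 187 to 182 and 19 to 14 bases before its RefSeq start, and Cldn6 held 1, 93 to 88 bases before its RefSeq start. The RefSeq start of Cldn6 lies inside the span given above, and so does its E-box. The table of promoters matched 5 of the 8 members with 6 start sites, and 5 of the 6 windows held the motif, the exception being the upstream of the start sites of Cldn7.

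Over all genes, the patterns most like each member were taken as the 3 highest values of Pearson's r of these deviations, over the 66 libraries of the tissue in which the mean of the member was higher. For Krt19 this was the yolk sac, although its medians were higher in embryos, and the 8 yolk sacs with high trophoblast markers were included. They are a description, and the libraries share depth and litters. For Cdh1 in yolk sacs they were B4galt1 (0.86), Riox1 (0.86) and Usf2 (0.86), for Krt8 Atp5c1 (0.76), Rpl28 (0.76) and Rpl10a (0.74), and for Krt18 Eef1d (0.85), Etfb (0.84) and Mrpl12 (0.83). For Cldn6 they were Spcs2 (0.83), Klhl9 (0.82) and Stt3a (0.81), for Cldn7 Arf5 (0.84), Tbc1d10a (0.81) and Agpat1 (0.81), and for Epcam Cdkn2d (0.74), Shq1 (0.71) and Cks1b (0.71). For Krt19 they were Mbnl3 (0.78), Sin3b (0.77) and Plet1 (0.74). For Cdh2 in embryos they were Ywhaz (0.65), Ddx42 (0.65) and Ppp2r5a (0.64). The comparison covered 10277 genes in yolk sacs and 10621 in embryos, with a median r between -0.024 and 0.011, and no member was among the 3 genes nearest to another.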

How the data were processed

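Libraries were made by the authors with QuantSeq 3′ FWD and unique molecular identifiers, aligned with STAR to mm10, collapsed per identifier and counted per gene with HTSeq. Program versions are not given in the sources used here. The deposited values are raw counts of molecules per gene, without normalization. Symbols missing from the deposit (26051 genes) were filled from GENCODE M21 for 25646. The 4 batch-control repeats (of 2 concepti) were left out of the main fits and added back in an alternative.

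The test was the quasi-likelihood test of edgeR 4.0.16 with TMM scaling, under R 4.3.3, on all genes that passed filterByExpr (minimum count 10), and an adjusted p (Benjamini-Hochberg over all tested genes) under 0.05 counted as a call. Embryos and yolk sacs of 1 stage, or the stages of 1 tissue, entered a fit together for tissue and stage, with the interaction terms from the same fits. Normalized counts used DESeq2 1.42.0 size factors over all libraries of both tissues. Ratios and litter means, taken as log2 after adding 1 to the normalized count, were compared by exact permutation, and correlations used 100000 resamples. Yolk sacs took the stage of their embryo from the shared title. Embryo and yolk sac share the conceptus, and the median correlation of their deviations was 0.10 and 0.046 at the earlier and later stage. Strand settings of the counting are not given. A pair of concepti carried unequal sex labels for embryo and yolk sac.

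Alternatives were DESeq2, RLE size factors, no filter, a filter at a mean count of 10, litter as a random block (limma 3.58.1), counts summed per litter, somite number, sex, title number and marker levels as covariates, 1 fit of all groups, adding the repeats, and leaving out litters. The fits were tested on simulated data. The members and gene lists were chosen with earlier results of these data known, and the alternatives with trophoblast markers after the data were seen. From each list at most 4 called genes with the largest absolute log2 difference were named, and for each member the 3 genes of most similar pattern. A gene of these lists is not reported here by name.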

Additional observations from a re-analysis of the deposited data

How the results depend on the processing

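Over the alternative fits, 227 refits of values called in the comparisons above kept their sign, and 10 lost the call. Of 1312 refitted member values, called or not, 82 changed sign, and in 1 of these cases either value was called. The largest absolute log2 difference before a sign change was 0.64. It was that of Krt19 under diabetes in yolk sacs at 5 to 6 somite pairs, at -0.0063 with trophoblast markers as a covariate. For diabetes in embryos at 7 to 9 somite pairs, where 1 member was called, the number called was 0 with the litter as a random block, 0 with counts summed per litter, 0 with all 8 groups in 1 fit and 2 with the title number as a covariate, and 0 to 1 on leaving out single litters. In the other comparisons the number stayed within 1.5 times. Krt19, whose differences were not called, changed sign for yolk sac against embryo at 5 to 6 somite pairs, to -0.024 with the litter as a random block and to -0.41 without the yolk sacs with high trophoblast markers. Its stage difference in yolk sacs turned to -0.041 with DESeq2, -0.019 with RLE size factors, -0.0094 without a filter, -0.014 with a filter at a mean count of 10, -0.014 with duplicates added and -0.082 per somite pair with somite number as a continuous term. The diabetes difference of the Cdh1 to Cdh2 ratio in the earlier yolk sacs turned to 0.040 with a pseudocount of 5. The cause was not tested in these cases. With the conceptus as a replicate block, which pairs embryo and yolk sac, the calls of the members were unchanged in the tissue and interaction comparisons. The ratio of yolk sac to embryo means moved by 0.010 to 0.049 on the log2 scale with library totals corrected by TMM factors. With size factors per tissue and stage, 0 of 64 group medians moved by over 1 SD. Depth limits Cdh2 in yolk sacs, where 4 later libraries had no count, and Krt19, at medians of 29.3 to 52.4 normalized counts. Intervals of the fits are for the fitted mean difference and do not give the range of single libraries. Intervals and p-values take the libraries as independent unless litters are named.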

Other observations

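Krt7, a keratin of trophoblast and other simple epithelia, had medians of 13.7 and 16.8 normalized counts in yolk sacs of normal and diabetic dams at 5 to 6 somite pairs. It reached 105 in D28M36B, 57.9 in N28M30H and 46.0 in D28M53B, and was 10.8 to 30.6 in the other 5 yolk sacs with high trophoblast markers. At 7 to 9 somite pairs, where no yolk sac was in that set, Krt7 ranged from 8.93 to 103. Afp, the visceral endoderm marker, was between 1570 and 6335 in these 8.

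The batch-control duplicates, left out of the comparisons of the report, repeated 4 libraries. For the embryo D24M15G, counts scaled to the library total (CPM) were 277 and 242 for Cdh1, 34.7 and 47.6 for Cdh2, and 187 and 145 for Krt18 in the original and the repeat. For its yolk sac the values were 749 and 717 for Cdh1 and 427 and 446 for Krt18. For the embryo N28M06C they were 183 and 181 for Cdh1, 35.5 and 35.1 for Cdh2 and 106 and 107 for Krt18.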
